A study of Mus musculus with 9 samples.

Results

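The lipid and glycan enzyme genes Pnpla1, Lpcat4, Pigl and St3gal3 were followed across large intestine samples with and without reduced Dhx9, the gene of an RNA and DNA helicase. They are 4 of the 16808 genes tested, and all 4 passed the filter on low levels. They were chosen because earlier results of these data showed them higher with both Dhx9 hairpins and with small spread, so their differences from control are given as a description, with no test. The 9 arrays held total RNA from the large intestine of mice on a C57BL/6 background, in 3 groups of 3 arrays. The groups carried the short hairpin RNA DHX9-1271, the hairpin DHX9-837, or, as control, the hairpin FLuc.1309 against firefly luciferase, a gene that mice lack. Every mouse, controls included, also carried rtTA, the activator through which doxycycline switches on the hairpin. From the age of 4 weeks they drank water with doxycycline (1 mg/ml) and sucrose (5%), and the treatment ran for 14 days. The labels name no cell type restriction for rtTA and do not state that each replicate was its own animal; a p-value here covers only the spread between these samples, which may be technical.

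Membrane lipids are remodelled by exchanging single acyl chains: phospholipases cut a chain off, and acyltransferases put another one on. Pnpla1 encodes a patatin-like enzyme that in skin completes acylceramides, the lipids of the water barrier. Lpcat4 encodes an acyltransferase that adds a chain to lysophospholipids. Pigl encodes the enzyme of the endoplasmic reticulum that removes an acetyl group at the second step of glycosylphosphatidylinositol (GPI) anchor assembly, the lipid and glycan tail that holds many proteins on the cell surface. St3gal3 encodes a Golgi sialyltransferase that caps galactose at the ends of glycan chains with sialic acid, a residue abundant on intestinal mucus and surface glycoproteins.

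The genes lie on different chromosomes (Pnpla1 on 17, Lpcat4 on 2, Pigl on 11 and St3gal3 on 4). The 250 bases before each annotated start are shown, because the genes moved together and their promoter sequences could be set beside each other. They come from RefSeq (build GRCm38.p6), which held all 4: chr17:28858161-28858410 (+ strand) for Pnpla1, chr2:112239591-112239840 (+ strand) for Lpcat4, chr11:62458191-62458440 (+ strand) for Pigl and chr4:118134947-118135196 (- strand) for St3gal3. Each is written 5′ to 3′ on the strand of its gene, and capitals mark GC boxes (GGGCGG) and CCAAT boxes (CCAAT) on either strand.
Pnpla1 promoter: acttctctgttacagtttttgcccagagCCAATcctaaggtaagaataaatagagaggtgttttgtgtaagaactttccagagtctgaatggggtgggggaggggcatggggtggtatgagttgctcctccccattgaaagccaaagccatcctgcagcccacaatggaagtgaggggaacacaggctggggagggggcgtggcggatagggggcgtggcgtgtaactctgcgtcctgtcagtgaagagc
Lpcat4 promoter: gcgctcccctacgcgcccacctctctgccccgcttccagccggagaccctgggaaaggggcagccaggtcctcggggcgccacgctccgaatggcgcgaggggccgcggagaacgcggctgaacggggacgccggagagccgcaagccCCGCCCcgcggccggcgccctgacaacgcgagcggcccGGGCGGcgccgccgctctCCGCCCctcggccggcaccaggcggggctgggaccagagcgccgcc
Pigl promoter: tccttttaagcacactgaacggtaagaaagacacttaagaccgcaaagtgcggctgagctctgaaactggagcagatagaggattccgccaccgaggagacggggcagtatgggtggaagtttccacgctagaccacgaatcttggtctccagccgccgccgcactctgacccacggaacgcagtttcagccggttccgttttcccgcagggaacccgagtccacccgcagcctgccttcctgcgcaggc
St3gal3 promoter: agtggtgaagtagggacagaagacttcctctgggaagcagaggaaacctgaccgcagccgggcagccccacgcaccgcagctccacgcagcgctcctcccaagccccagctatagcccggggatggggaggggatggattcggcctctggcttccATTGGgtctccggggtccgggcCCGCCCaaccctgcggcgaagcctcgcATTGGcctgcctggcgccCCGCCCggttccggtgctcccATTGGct
The Lpcat4 window had 79.6% G and C and 3 GC boxes, and the St3gal3 window had 68.4%, 2 GC boxes and 3 CCAAT boxes. The Pigl window had 58.8% and neither box, and the Pnpla1 window had 54% and 1 CCAAT box. The median over 32851 windows of the same length was 52.4%, and 32.7% of them held a GC box and 33.8% a CCAAT box. Matches of these motifs did not overlap each other. A TATA box (TATAAA), an E-box (CACGTG), an AP-1 site (TGANTCA), a C/EBP-ATF element core (TGATGNAA) and a nuclear receptor half-site (AGGTCA) were also searched on both strands. These letters were in 0 of the 4 windows, which 12.4%, 6.02%, 6.75%, 3.45% and 14% of all windows held, in that order.

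Dhx9 itself had log2 levels of 8.27, 8.22 and 8.18 in DHX9-1271 arrays and 8.19, 8.22 and 8.20 in DHX9-837 arrays, against 9.21, 9.18 and 9.32 in control arrays. The hairpins left 49.6% (DHX9-1271) and 48.8% (DHX9-837) of the control signal. All levels here are log2 values after RMA, the authors' array normalization. Markers of columnar intestinal epithelium were bright: the 14 genes listed, such as Cdx2 and Muc2, had mean levels of 11.28 to 11.32 in DHX9-1271 arrays and 11.22 to 11.29 in DHX9-837 arrays, against 11.24 to 11.26 in control arrays. Small intestine markers were bright in some arrays as well. Defa24, for example, was at 11.96 in DHX9-837 replicate 3 and 10.77 in control replicate 2, but at 5.54 in DHX9-1271 replicate 2. Within the columnar list the genes went both ways: in both hairpins against control 2 of the 14 were called higher, the keratin genes Krt18 (log2 fold 0.66, adjusted p = 0.000244) and Krt19 (0.24, adjusted p = 0.0139), and 1 lower, the chloride-bicarbonate exchanger gene Slc26a3 (-0.45, adjusted p = 0.000891). These shares, 14.3% and 7.14%, stand beside 8.13% and 5.33% of all genes tested. The call of Krt19 ended without control replicate 1 (0.20, adjusted p = 0.0561).

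Pnpla1 (Entrez Gene 433091) had log2 levels of 7.16, 7.19 and 7.30 in DHX9-1271 arrays and 7.53, 7.71 and 7.52 in DHX9-837 arrays, against 5.93, 5.93 and 5.95 in control arrays. Its 3 groups did not overlap: every DHX9-837 array lay above every DHX9-1271 array, and the lowest knockdown array lay 1.21 above the highest control array. The log2 fold was 1.28 (SE 0.062) with DHX9-1271 and 1.65 (SE 0.062) with DHX9-837, or 2.43-fold and 3.14-fold on the linear scale. Control arrays 1 and 2 held identical values, as happens between arrays for 45.3% of genes tested, and the control SD was 0.0094. In whole tissue, a higher level in each cell and a larger share of the cells that express a gene cannot be told apart.

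Lpcat4 (Entrez Gene 99010) had log2 levels of 9.69, 9.26 and 9.54 in DHX9-1271 arrays and 10.30, 10.47 and 10.29 in DHX9-837 arrays, against 8.67, 8.81 and 8.93 in control arrays. Here, too, the groups were stacked without overlap, with the DHX9-837 arrays at least 0.60 above the DHX9-1271 arrays. The lowest DHX9-1271 array, replicate 2, lay only 0.33 above the highest control array. The log2 fold was 0.69 with DHX9-1271 and 1.55 with DHX9-837 (SE 0.11 each), or 1.62-fold and 2.94-fold.

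Pigl (Entrez Gene 327942) had log2 levels of 8.17, 8.06 and 8.25 in DHX9-1271 arrays and 8.20, 8.35 and 8.30 in DHX9-837 arrays, against 7.18, 7.23 and 7.28 in control arrays. The hairpin groups overlapped each other, and both lay at least 0.78 above the control arrays. The log2 fold was 0.93 with DHX9-1271 and 1.05 with DHX9-837 (SE 0.064 each), or 1.91-fold and 2.08-fold.

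St3gal3 (Entrez Gene 20441) had log2 levels of 8.76, 8.45 and 8.75 in DHX9-1271 arrays and 8.77, 8.83 and 8.53 in DHX9-837 arrays, against 7.42, 7.95 and 7.74 in control arrays. The hairpin groups overlapped, and the lowest knockdown array lay 0.50 above the highest control array. Most of the spread was among the controls, whose SD was 0.27, against 0.18 in DHX9-1271 and 0.16 in DHX9-837 arrays. The log2 fold was 0.95 with DHX9-1271 and 1.00 with DHX9-837 (SE 0.14 each), or 1.93-fold and 2.01-fold.

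**Figure D1:**
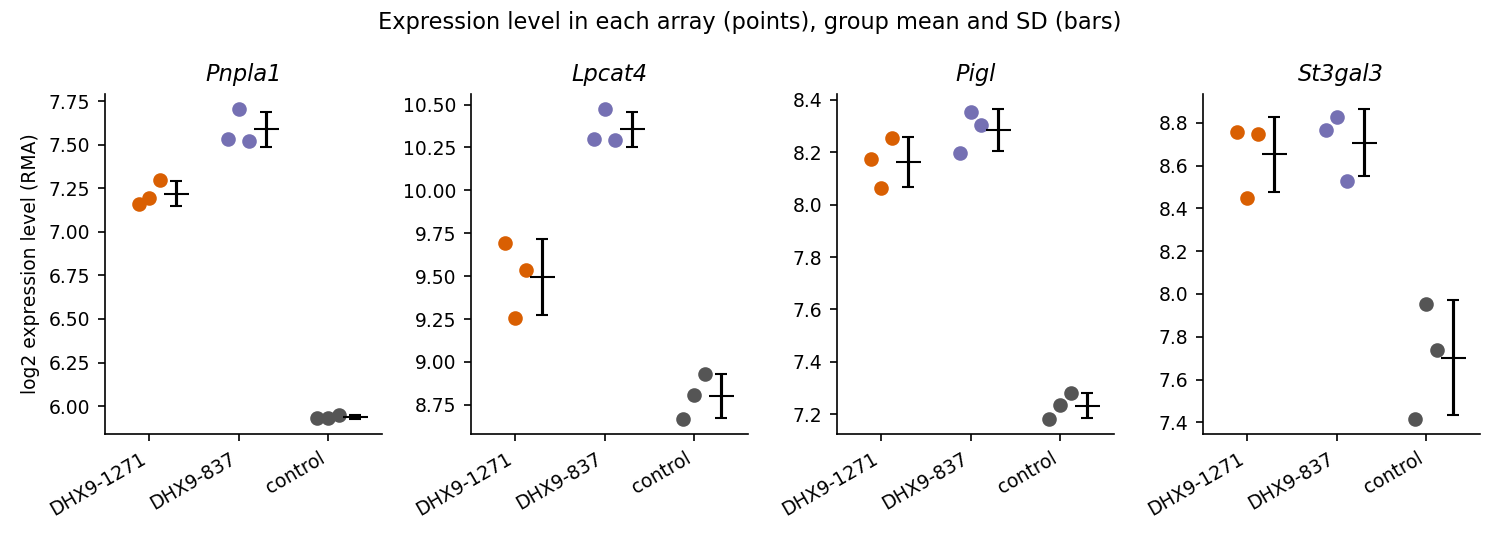
Log2 expression level (RMA) of each gene in the 3 arrays of DHX9-1271, DHX9-837 and control, with the group mean and SD (bars). All knockdown arrays lie above all control arrays for the 4 genes; DHX9-837 arrays lie above DHX9-1271 arrays for Pnpla1 and Lpcat4, whereas the hairpin groups overlap for Pigl and St3gal3.

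In the mean of both hairpins against control, the log2 fold was 1.47 for Pnpla1, 1.12 for Lpcat4, 0.99 for Pigl and 0.98 for St3gal3. By size these were the rises ranked 12, 32, 54 and 56 among the genes tested. All 6 knockdown arrays lay above all 3 control arrays for the 4 genes, as for 10.7% of genes tested. At an adjusted p under 0.05, 8.13% of the genes tested were called higher and 5.33% lower in this contrast. With DHX9-1271 alone the shares were 2.83% and 1.58%, and with DHX9-837 alone 8.67% and 6.91%. The genes were picked on these values, so nothing is read from any of these shares.

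By the residual SD within groups, the description of the 4 as tight rises held for Pnpla1 and Pigl but not for Lpcat4 and St3gal3. Small spread was part of the choice, so this is a description and no test. The residual SD was 0.072 for Pnpla1 and 0.077 for Pigl, below the median of 0.0913 over all genes tested. For Pnpla1 the SD was 0.0094 in control arrays, 2 of which shared a value, 0.072 in DHX9-1271 and 0.102 in DHX9-837 arrays. The residual SD was 0.159 for Lpcat4 and 0.207 for St3gal3, at percentiles 84.9 and 92.9 of all genes, so their spread was wide for these data.

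**Figure D2:**
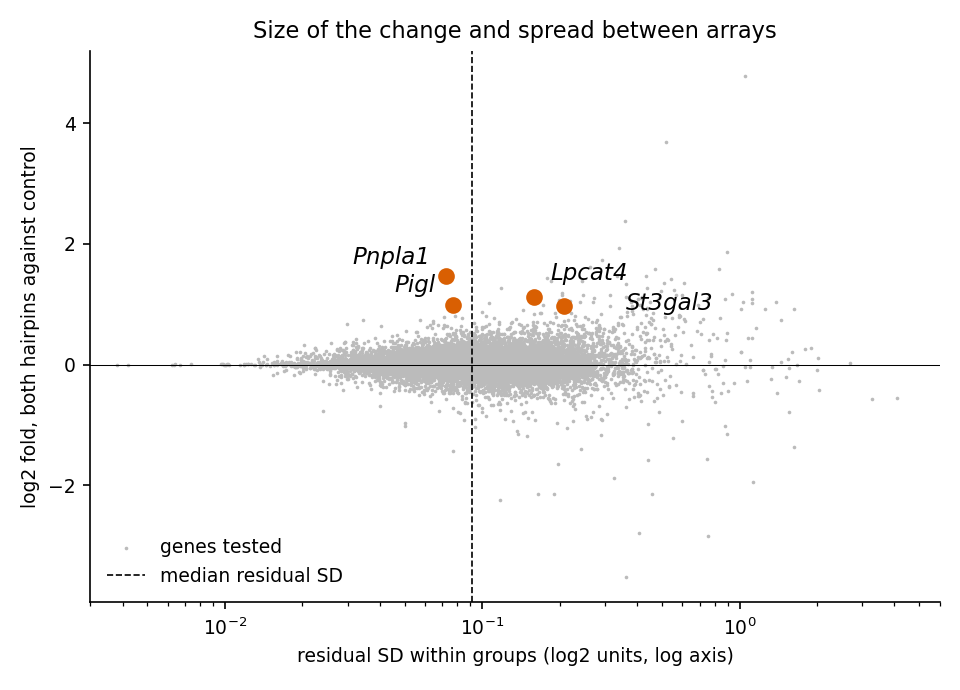
Log2 fold of both hairpins against control (vertical axis) by the residual SD within groups (horizontal log axis, log2 units) for the genes tested; 2 genes with an SD under 0.003 lie off the axis. Pnpla1 (0.072) and Pigl (0.077) lie left of the median SD of 0.0913 (dashed line), and Lpcat4 (0.159) and St3gal3 (0.207) lie right of it.

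The difference between the hairpins was not used to choose the genes, although its standard error rests on the spread that was. Lpcat4 was higher in DHX9-837 than in DHX9-1271 by 0.86 on the log2 scale (95% interval 0.60 to 1.12, limma adjusted p = 0.0131), or 1.82-fold. That call ended without DHX9-1271 replicate 3 (difference 0.88, adjusted p = 0.0696) and without DHX9-837 replicate 1 (difference 0.89, adjusted p = 0.051). Pnpla1 was higher in DHX9-837 by 0.37 (95% interval 0.23 to 0.51, adjusted p = 0.0262), or 1.29-fold. The Pnpla1 call ended whenever any one of DHX9-1271 replicates 1, 2 and 3 or DHX9-837 replicates 1 and 2 was left out (adjusted p = 0.108, 0.0859, 0.0808, 0.0737 and 0.0647, with differences of 0.31 to 0.41), and with the replicate number as a block (adjusted p = 0.0554). For Pigl the difference was 0.12 (95% interval -0.024 to 0.27, adjusted p = 0.451), and for St3gal3 it was 0.055 (95% interval -0.27 to 0.38, adjusted p = 0.917). All DHX9-837 arrays lay above all DHX9-1271 arrays for Pnpla1 and Lpcat4, as for 9.37% of genes tested. The share was 40.2% among genes called higher in the mean of both hairpins against control. Such a call also takes in genes raised mainly with DHX9-837. In this contrast 0.696% of genes tested were called higher in DHX9-837 and 1.21% lower, while Dhx9 itself differed by -0.02 (95% interval -0.14 to 0.094, adjusted p = 0.908).

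The mean of the adipocyte markers tested differed between the hairpins in the same direction as Lpcat4 and Pnpla1. The adipocyte genes Adipoq and Lep lay under the level filter. Among those tested Plin4 did not share the direction, with 7.28, 7.39 and 7.28 in DHX9-1271 and 7.33, 7.33 and 7.18 in DHX9-837 arrays. Part of the Retn difference was a lower level with DHX9-1271 than in control (log2 fold -0.61). The mean level of the 5 tested was 7.81 to 7.93 in DHX9-837 arrays, against 7.29 to 7.47 in DHX9-1271 arrays, with 7.40 to 7.77 in control arrays. Of the 5, 2 were called higher in DHX9-837 than in DHX9-1271, the resistin gene Retn (1.04, adjusted p = 0.0312) and the fatty acid-binding protein gene Fabp4 (0.88, adjusted p = 0.0362), which are named after their values were seen. In that contrast 0.696% of all genes tested were called higher. For both Retn and Fabp4 every DHX9-837 array lay above every DHX9-1271 array. Both calls ended without control replicate 3 or any one hairpin array (highest adjusted p = 0.0997 for Retn, without DHX9-1271 replicate 1, difference 1.07; and 0.124 for Fabp4, without DHX9-1271 replicate 3, difference 0.93) and with the replicate block (adjusted p = 0.054 and 0.0624). Against control, 2 of the 5 were called higher with DHX9-837, Fabp4 (0.70, adjusted p = 0.0214) and Cidec (0.41, adjusted p = 0.0391), and 0 with DHX9-1271 by limma. Of all genes tested, 8.67% were called higher with DHX9-837 and 2.83% with DHX9-1271. Whether these calls against control hold without 1 array is not given here. The part of adipocytes in the differences of Lpcat4 and Pnpla1 was not tested.

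Among genes most alike in pattern, likeness was measured as the root mean square difference of log2 levels over the 9 arrays, after centring each gene on its own mean. Pnpla1 was closest to Asns, the asparagine synthetase gene (difference 0.137), Sprr1a, a cornified envelope gene (0.147), the tight-junction claudin gene Cldn8 (0.188), the water channel gene Aqp4 (0.227) and the neutral amino acid transporter gene Slc1a4 (0.233). The median distance of Pnpla1 to all genes tested was 0.717. Lpcat4 was closest to the EGF receptor ligand gene Ereg (0.176), Slc1a4 (0.179), Sprr1a (0.188), the annexin gene Anxa1 (0.192) and the epoxide hydrolase gene Ephx1 (0.215), against a median of 0.657. These genes share the stepped pattern because they were picked for likeness over the same arrays. Asns, for example, had mean levels of 8.58 in DHX9-1271 and 9.03 in DHX9-837, against 7.37 in control. Ereg had mean levels of 8.19 in DHX9-1271 and 8.80 in DHX9-837, against 7.42 in control.

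Pigl was closest to Nup210l (0.122), the progestin receptor family gene Paqr8 (0.135), Lrrc51 (0.135), the activin-binding follistatin gene Fst (0.139) and St3gal3 (0.152), with a median to all genes of 0.485. St3gal3 was in turn closest to Pigl (0.152), followed by the translation repressor gene Eif4ebp1 (0.153), the mitotic ubiquitin-conjugating enzyme gene Ube2c (0.181), Haus1, of a spindle complex (0.184), and Nup210l (0.186), with a median of 0.501. Pigl and St3gal3 were thus the closest pair among the 4, and Lpcat4 and St3gal3 the farthest (0.357). Fst, from the neighbourhood of Pigl, had 7.98 in DHX9-1271 and 7.99 in DHX9-837, against 7.21 in control.

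The other genes of the families were also measured. Of the 5 other patatin-like genes, 0 were called higher in both hairpins against control and 1 lower, against 8.13% and 5.33% of all genes tested. The same shares of all genes stand beside each list count below. These counts rest on the mean of both hairpins, so a call may come mainly from 1 hairpin. With DHX9-1271 alone 2.83% of all genes were called higher and 1.58% lower. With DHX9-837 alone the shares were 8.67% and 6.91%. Pnpla2, the main triglyceride lipase of many tissues, was lower (log2 fold -0.16, SE 0.041, adjusted p = 0.0366), with folds of -0.06 with DHX9-1271 and -0.26 with DHX9-837. That call ended in 8 of the 9 fits that left out 1 array (highest adjusted p = 0.1, without control replicate 3, with a fold of -0.14) and with the replicate block (adjusted p = 0.0667). The folds of Pnpla3 (-0.15), Pnpla6 (-0.15), Pnpla8 (-0.12) and Pnpla7 (-0.01) were not called. Pnpla3 had mean levels of 6.07 in DHX9-1271 and 6.37 in DHX9-837, against 6.37 in control. Pnpla5 lay under the level filter.

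Pnpla1 works in skin with enzymes that build and export acylceramide, and 18 genes of that barrier were listed. Of these, 6 lay under the level filter: Elovl4, Cyp4f39, Aloxe3, Sdr9c7, Lipn and Asprv1. Of the 11 others tested besides Pnpla1, 0 were higher and 1 was lower, with folds from -0.23 to 0.08 and a median of -0.03. The lower one, the lipid transporter gene Abca12 (-0.23, adjusted p = 0.0466), lost its call in 7 of 9 fits that left out 1 array (highest adjusted p = 0.152, without control replicate 1, with a fold of -0.20) and with the replicate block (adjusted p = 0.0827). Markers of stratified squamous epithelium, which borders the large intestine at the anus, were low throughout. Of 18 such genes, 9 lay under the level filter, Krt1, Krt4, Krt6a, Krt14 and Krt15 among them, and 0 of the 9 tested were called. The mean level of the 18 was 5.08 to 5.13 in DHX9-1271 arrays and 5.04 to 5.19 in DHX9-837 arrays, against 5.06 to 5.31 in control arrays, where the level filter was 5.28. In ceramide and sphingolipid synthesis, 2 of 20 genes were higher (10%) and 2 lower (10%), with a median of 0.03. Over all genes tested the shares were 8.13% and 5.33%. With DHX9-1271 alone 0 of the 20 were called, and with DHX9-837 alone 1 was higher and 2 lower. By the mean of both hairpins the called genes were as follows. The ceramide synthase gene Cers2 (0.17) and the sphingomyelin synthase gene Sgms1 (0.23) were higher, and the ceramide synthase gene Cers5 (-0.32, adjusted p = 0.0223) and the ceramidase gene Acer1 (-0.33) lower. The call of Cers5 held in all 9 fits that left out 1 array. The calls of Cers2, Sgms1 and Acer1 ended in 4, 8 and 7 of them, with highest adjusted p = 0.0808 and 0.129 without control replicate 1 (folds 0.14 and 0.20) and adjusted p = 0.123 without control replicate 3 (fold -0.31). The call of Sgms1 also ended with the replicate block (adjusted p = 0.0616).

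Lpcat4 belongs to the acyltransferases that make and remodel glycerophospholipids. Of the 17 other tested genes, 3 were higher (17.6%) and 3 lower (17.6%), with a median of -0.05 beside 0.0011 over all genes. Among the Lpcat genes, Lpcat2, whose enzyme makes platelet-activating factor, was higher (0.28, adjusted p = 0.0237). Its call ended in 3 fits that left out an array (highest adjusted p = 0.0597, without control replicate 1, where the fold was 0.20). Lpcat1 (0.16, adjusted p = 0.105) and Lpcat3 (-0.01, adjusted p = 0.922), which supplies polyunsaturated phospholipids in the intestine, were not called. Mboat1, an acyltransferase for lysophosphatidylethanolamine and lysophosphatidylserine, had the largest fold of the others: its log2 levels were 11.33, 11.28 and 11.32 in DHX9-1271 arrays and 11.42, 11.56 and 11.31 in DHX9-837 arrays, against 10.73, 10.77 and 10.80 in control arrays (fold 0.60, SE 0.055, adjusted p = 0.000496). Lpgat1, of the endoplasmic reticulum, was higher too (0.22, adjusted p = 0.0132).

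The lower acyltransferase genes act on earlier steps that make phosphatidic acid. Agpat2 had log2 levels of 9.63, 9.62 and 9.68 in DHX9-1271 arrays and 9.85, 9.90 and 9.88 in DHX9-837 arrays, against 10.05, 10.19 and 10.24 in control arrays (fold -0.40, SE 0.048, adjusted p = 0.00147). Agpat4 (-0.36, adjusted p = 0.0133) lost its call without control replicate 1 (-0.32, adjusted p = 0.0588). Gpam, which adds the first acyl chain to glycerol phosphate (-0.42, adjusted p = 0.0312), lost its call in 7 fits that left out 1 array (highest adjusted p = 0.116, without control replicate 1, with a fold of -0.37).

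The enzymes that free acyl chains were mixed: of 17 tested phospholipase A and lysophospholipase genes 2 were higher (11.8%) and 2 lower (11.8%). Over all genes tested the shares were 8.13% and 5.33%. Pla2g4a, the cytosolic phospholipase that releases arachidonic acid, had log2 levels of 8.33, 8.32 and 8.38 in DHX9-1271 arrays and 8.39, 8.46 and 8.47 in DHX9-837 arrays, against 7.94, 8.03 and 8.03 in control arrays (fold 0.39, SE 0.041, adjusted p = 0.000889). Pla2g7, which inactivates platelet-activating factor, was higher (0.55, adjusted p = 0.00246), and the secreted phospholipase gene Pla2g10 was lower (-0.40, adjusted p = 0.00843). Plaat3 was lower (-0.19, adjusted p = 0.0385), a call that ended in 8 fits that left out 1 array (highest adjusted p = 0.106, without control replicate 2, with a fold of -0.16) and with the replicate block (adjusted p = 0.0706). Of 20 genes of phospholipid head-group synthesis, 0 were higher and 3 lower, with a median of 0.006. With DHX9-1271 alone 0 of the 20 were lower, and with DHX9-837 alone 4. Cept1 (-0.28, adjusted p = 0.00998), which finishes phosphatidylcholine and phosphatidylethanolamine, and Cds1 (-0.22, adjusted p = 0.01) kept their calls in the 9 fits that left out an array. Pcyt1a (-0.19, adjusted p = 0.0416), of the limiting step of phosphatidylcholine synthesis, lost its call in 7 of them (highest adjusted p = 0.112, without control replicate 3, with a fold of -0.17) and with the replicate block (adjusted p = 0.07).

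Pigl is one of 33 GPI anchor genes listed, all of them tested. Of the 32 others, 1 was higher (3.12%) and 3 were lower (9.38%), and their median fold was -0.05. With DHX9-1271 alone 0 of the 32 were called, and with DHX9-837 alone 1 was higher and 4 were lower. The genes of the first step, Piga (0.08), Pigc (-0.06), Pigh (-0.16), Pigp (-0.11), Pigq (0.11) and Pigyl (-0.02), were not called, and neither was Pigw (-0.01), which acts next after Pigl. Pgap1, which removes an acyl chain from the finished anchor, was higher, with log2 levels of 8.81, 8.76 and 8.79 in DHX9-1271 arrays and 9.16, 9.32 and 9.12 in DHX9-837 arrays, against 8.11, 8.61 and 8.41 in control arrays (fold 0.62, SE 0.098, adjusted p = 0.00502). Pgap6 was lower (-0.25, adjusted p = 0.00843). Pigv, a mannose transferase (-0.28, adjusted p = 0.0422), and Pigg, which adds ethanolamine phosphate (-0.23, adjusted p = 0.0485), were lower but lost their calls in 6 and 7 fits that left out 1 array (highest adjusted p = 0.15 and 0.167, both without control replicate 1, with folds of -0.22 and -0.18). Both also lost their calls with the replicate block (adjusted p = 0.07 and 0.0905).

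Of 44 tested genes for proteins that carry such an anchor, 9 were higher (20.5%) and 2 lower (4.55%), with a median of 0.09. Plet1 had log2 levels of 7.42, 8.01 and 7.73 in DHX9-1271 arrays and 9.14, 8.92 and 8.75 in DHX9-837 arrays, against 7.21, 7.15 and 7.19 in control arrays (fold 1.15, SE 0.12, adjusted p = 0.00096). The urokinase receptor gene Plaur (0.42, adjusted p = 0.00423), Ly6e (0.26, adjusted p = 0.00551) and Cd24a (0.33, adjusted p = 0.0104) were higher as well. The rise of Plaur came mainly with DHX9-837 (0.73, against 0.097 with DHX9-1271). Its DHX9-1271 arrays (6.93, 6.85 and 6.74) overlapped its control arrays (6.86, 6.75 and 6.61). The prion protein gene Prnp was lower (-0.32, adjusted p = 0.00256), with means of 9.67 in DHX9-1271 and 9.03 in DHX9-837, against 9.67 in control. The intestinal alkaline phosphatase gene Alpi was lower (-0.66, adjusted p = 0.0145), a call lost once control replicate 2 was left out (-0.58, adjusted p = 0.0529). Alpi is also one of the small intestine markers listed. Their mean ran from 6.70 in DHX9-1271 replicate 2, where Alpi was lowest (9.71), to 9.50 in DHX9-837 replicate 3. The part of small intestine tissue in the Alpi level was not tested. The count of 9 was 4 without control replicate 2 and 5 without control replicate 1, DHX9-1271 replicate 3 or DHX9-837 replicate 1.

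St3gal3 has 15 other tested sialyltransferases beside it, of which 2 were higher (13.3%) and 1 was lower (6.67%), with a median of 0.11. St3gal1, which caps the O-linked glycans of mucins, had log2 levels of 8.98, 8.96 and 9.01 in DHX9-1271 arrays and 9.08, 9.19 and 9.08 in DHX9-837 arrays, against 8.32, 8.60 and 8.55 in control arrays (fold 0.56, SE 0.064, adjusted p = 0.00126). St6gal1, which attaches sialic acid to galactose in another linkage on N-linked glycans, was higher (0.38, adjusted p = 0.0189) but lost its call in 2 fits that left out 1 array (highest adjusted p = 0.0639, without control replicate 2, with a fold of 0.32). St6galnac6, which adds sialic acid to gangliosides, was the lower one. Its log2 levels were 9.34, 9.29 and 9.34 in DHX9-1271 arrays and 8.90, 8.89 and 8.77 in DHX9-837 arrays, against 10.03, 10.10 and 10.07 in control arrays. Its fold of -0.97 (SE 0.044, adjusted p = 1.6e-05) was as large as the rise of St3gal3 and opposite in sign.

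St3gal4 and St3gal6, the close relatives that act on the same kind of chain, varied too much between arrays to be called. St3gal4 had log2 levels of 7.71, 6.22 and 7.35 in DHX9-1271 arrays and 8.68, 8.49 and 9.49 in DHX9-837 arrays, against 5.71, 9.03 and 7.91 in control arrays (fold 0.44, SE 0.65, adjusted p = 0.702). St3gal6 had log2 levels of 6.59, 6.75 and 6.63 in DHX9-1271 arrays and 7.17, 7.24 and 7.49 in DHX9-837 arrays, against 5.94, 7.37 and 6.79 in control arrays (fold 0.28, SE 0.25, adjusted p = 0.507). St3gal2 (0.06) and St3gal5, of ganglioside synthesis (-0.09), were not called. The control array with the lowest St3gal3 level, replicate 1, was also lowest for St3gal1, St3gal4, St3gal6 and Pgap1, and control replicate 2 was highest for each of them. The 9 tested small intestine markers followed that order in controls, with mean levels of 6.94, 8.96 and 8.33 in replicates 1, 2 and 3, and of 7.84, 6.70 and 7.70 in DHX9-1271 and 8.74, 7.05 and 9.50 in DHX9-837 arrays. Between replicates, St3gal3 had the order of these markers in DHX9-1271 arrays (8.76, 8.45 and 8.75). In DHX9-837 arrays it had the reverse order (8.77, 8.83 and 8.53). The part of small intestine tissue in the St3gal3 level was not tested.

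**Figure D3:**
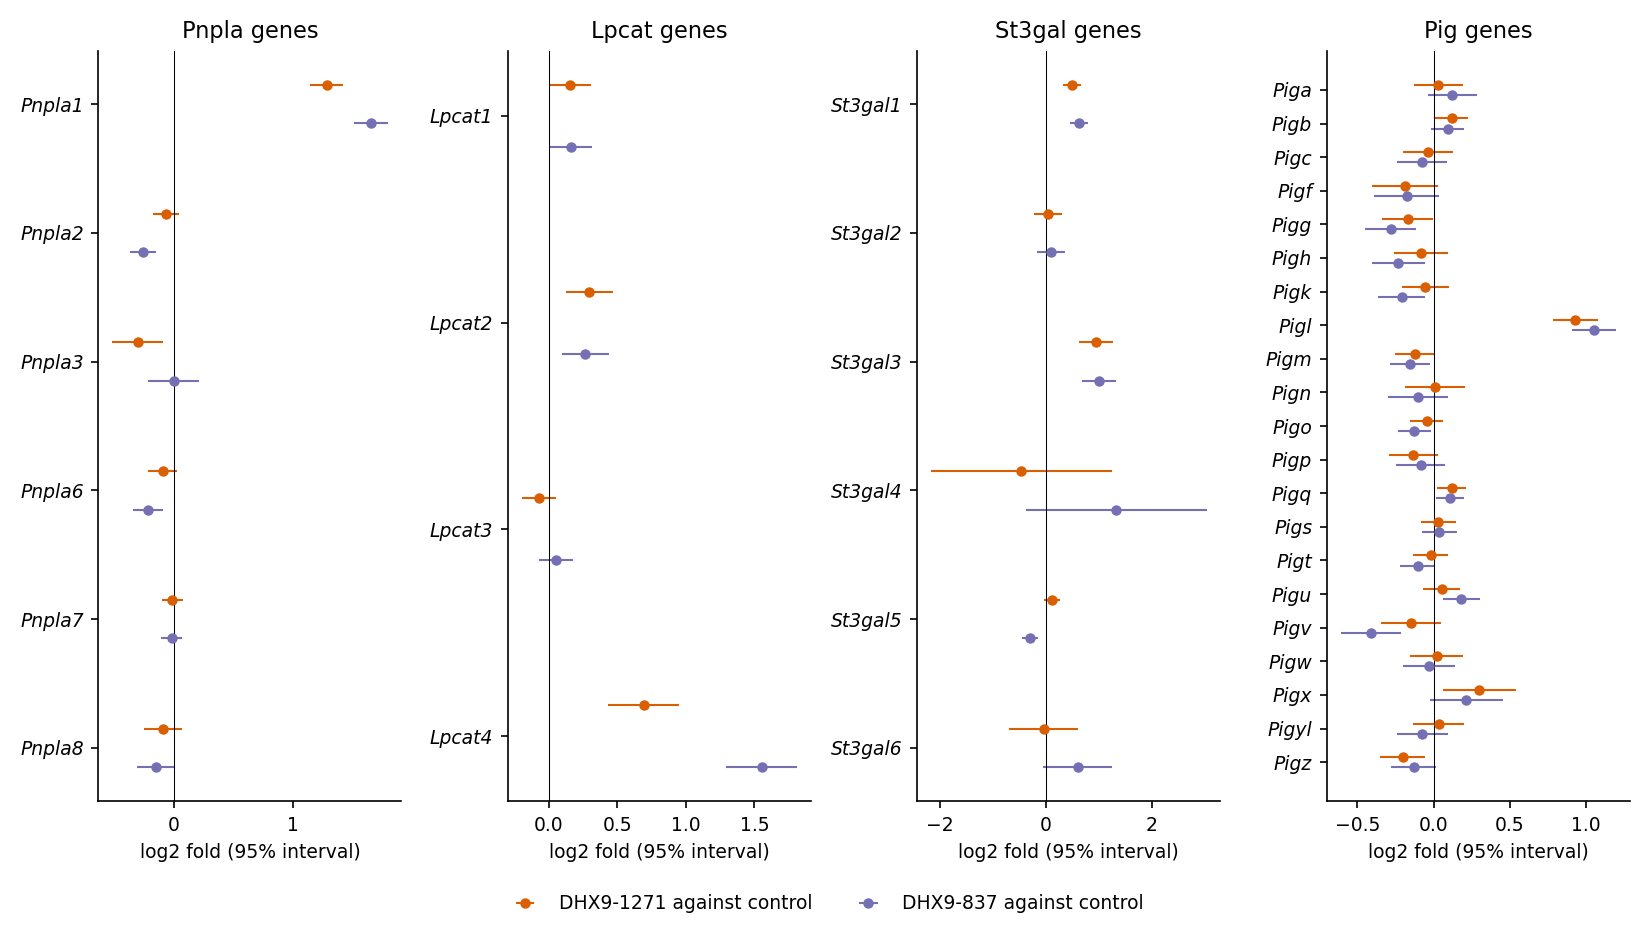
Log2 fold and 95% interval of DHX9-1271 against control and of DHX9-837 against control for the tested Pnpla, Lpcat, St3gal and Pig genes (horizontal axes differ between panels). Pnpla1 (1.28 and 1.65) and Pigl (0.93 and 1.05), chosen for their rises, lie apart from the other genes of their panels. Lpcat4 (0.69 and 1.55), chosen likewise, does so with DHX9-837. With DHX9-1271 its interval (0.44 to 0.95) overlaps that of Lpcat2 (0.13 to 0.47). St3gal1 (0.49 and 0.63) lies near St3gal3 (0.95 and 1.00), and St3gal4 (-0.46 and 1.33) has wide intervals.

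The supply of sialic acid and the chains it caps were also measured. Of 11 tested genes for sialic acid supply and removal, 2 were higher (18.2%) and 1 lower (9.09%), with a median of -0.02. Over all genes tested the shares were 8.13% and 5.33%. Cmah, whose enzyme turns N-acetylneuraminic acid into its N-glycolyl form, was higher (0.66, SE 0.12, adjusted p = 0.00948). The call of the synthase gene Nans (0.14, adjusted p = 0.0485) ended in 9 of 9 fits that left out 1 array (highest adjusted p = 0.132, without control replicate 2, with a fold of 0.12) and with the replicate block (adjusted p = 0.089). That of Gne, which begins the pathway (-0.19, adjusted p = 0.028), ended in 5 (highest adjusted p = 0.0879, without control replicate 3, with a fold of -0.16) and with the block (adjusted p = 0.061). Of 18 galactose, N-acetylglucosamine and fucose transferases of these chains, 3 were higher (16.7%) and 1 lower (5.56%), with a median of -0.04. B4galt6, which makes lactosylceramide (0.36, SE 0.037, adjusted p = 0.00081), B3gnt5, which extends it (0.38, adjusted p = 0.00771), and Fut8, which adds core fucose (0.33, adjusted p = 0.00771), were higher. Fut11 was lower (-0.21, adjusted p = 0.0368) and lost its call in 7 fits that left out 1 array (highest adjusted p = 0.106, without control replicate 2, with a fold of -0.16).

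**Figure D4:**
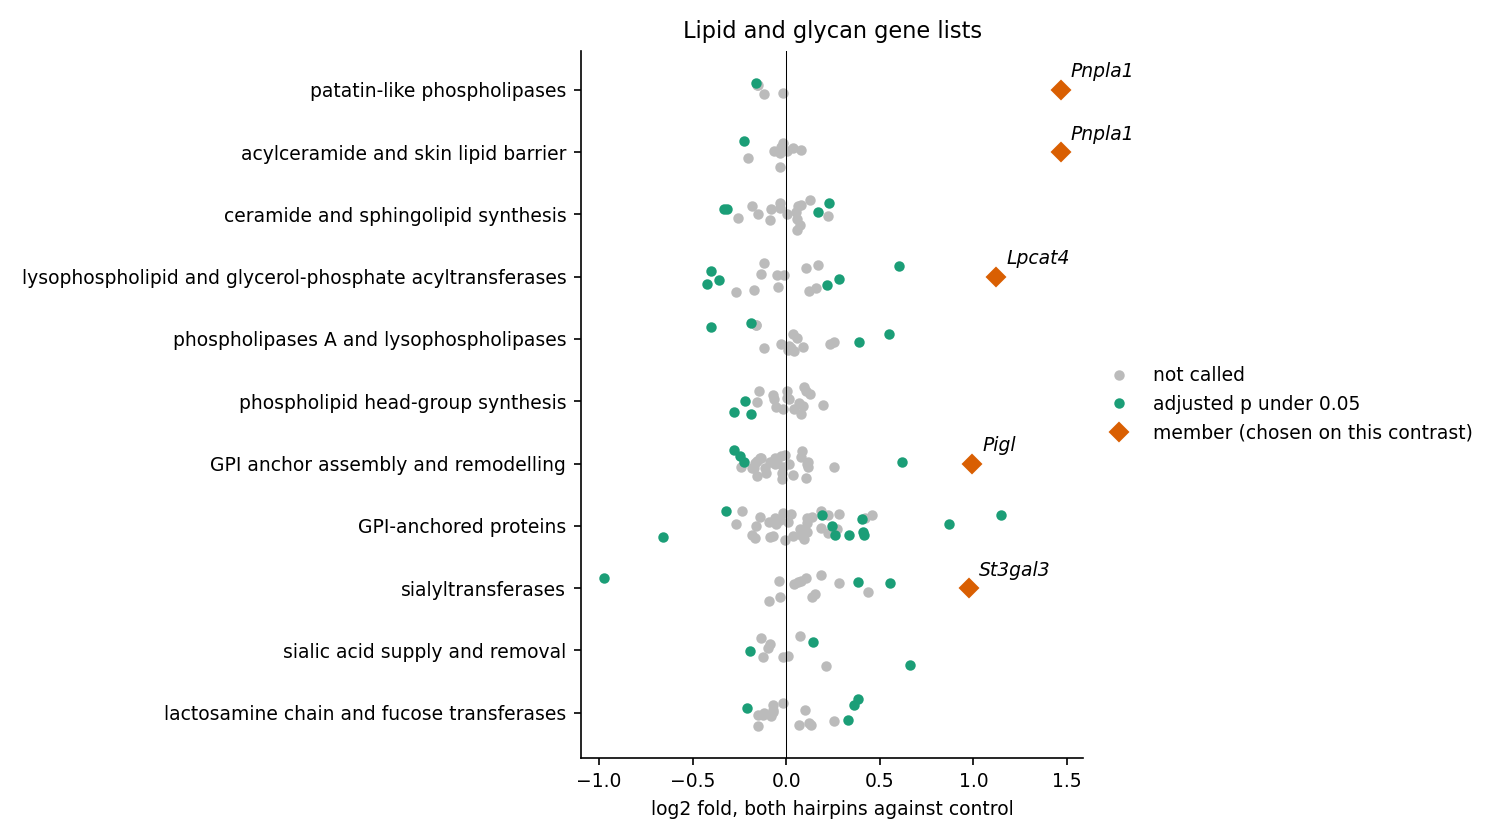
Log2 fold of both hairpins against control (horizontal axis) for each tested gene of 11 lipid and glycan lists; green points passed an adjusted p under 0.05, grey points did not, and diamonds mark the 4 genes chosen on this contrast. Among the other list genes the lowest fold is that of St6galnac6 (-0.97) and the highest that of Plet1 (1.15).

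The genes next to the 4 on their chromosomes had smaller folds. The 4 were chosen for their rise in this contrast and the neighbours were not, so nothing is read from that difference. Among the 5 nearest tested genes on either side of each, 40 in all, 3 were called higher and 1 lower, with folds from -0.34 to 0.43 and a median of -0.01. These shares, 7.5% and 2.5%, stand beside 8.13% and 5.33% of all genes tested. The called ones were Katnbl1 (0.43, adjusted p = 0.00621) and Ccdc34 (0.26, adjusted p = 0.0356) near Lpcat4, and Srpk1 (0.15, adjusted p = 0.022) and Stk38 (-0.34, adjusted p = 0.00641) near Pnpla1. The call of Ccdc34 ended in 8 fits that left out 1 array (highest adjusted p = 0.123, without control replicate 1, with a fold of 0.23) and with the replicate block (adjusted p = 0.0549), and that of Srpk1 in 2 (highest adjusted p = 0.0704, without control replicate 1, with a fold of 0.14) and with the block (adjusted p = 0.0513). Near Pigl and St3gal3, 0 of 10 neighbours each were called by limma. In the reference annotation 9530034E10Rik overlaps St3gal3, and its fold was -0.07 (adjusted p = 0.516). Gm52523 overlaps Lpcat4 and was not tested here.

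**Figure D5:**
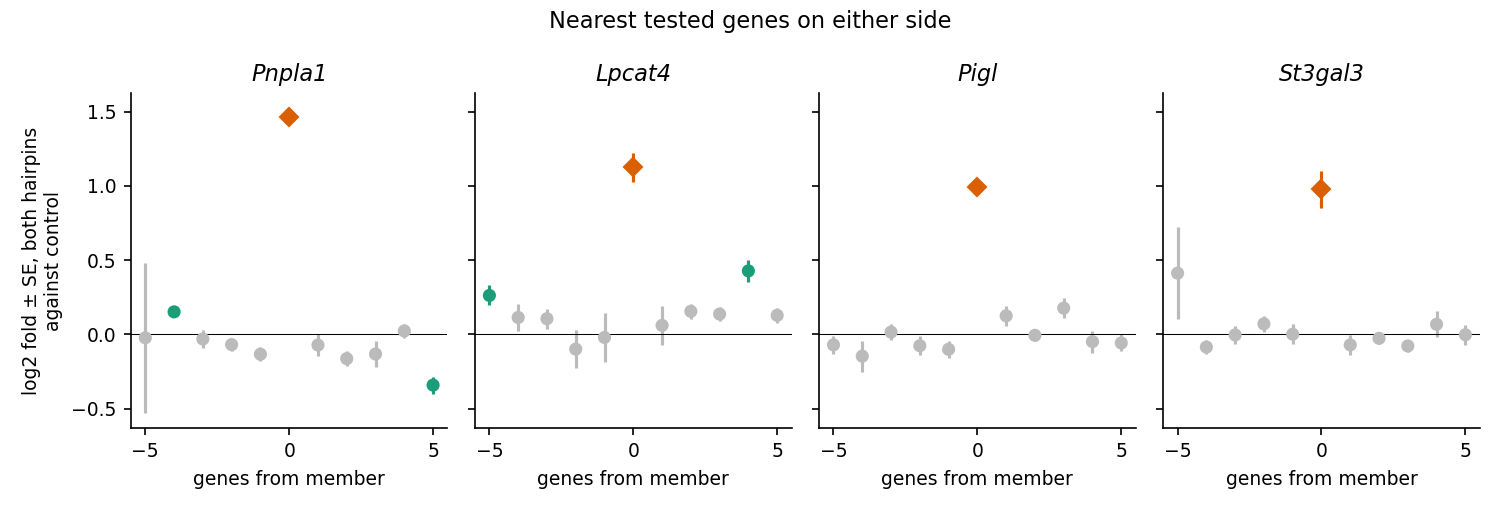
Log2 fold (± SE) of both hairpins against control for each of the 4 genes (diamond, position 0) and the 5 nearest tested genes on either side (points; green at an adjusted p under 0.05). Neighbours lie between -0.34 and 0.43, and the 4 genes, chosen for their rise in this contrast, between 0.98 and 1.47.

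Markers of other cells moved with the same contrast, in which 8.13% of all genes tested were called higher and 5.33% lower. Of 11 tested genes of proliferating cells 10 were higher, with mean levels of 8.20 to 8.22 in DHX9-1271 arrays and 8.17 to 8.30 in DHX9-837 arrays, against 7.52 to 7.95 in control arrays. Like St3gal3, this mean was lowest in control replicate 1 (7.52) and highest, among controls, in replicate 2 (7.95). B and plasma cell genes had 5 of 9 higher (means 7.71 to 8.23 in DHX9-1271 and 7.79 to 8.16 in DHX9-837, against 7.47 to 7.56 in control), and macrophage genes 5 of 9 higher and 1 lower (7.66 to 7.72 in DHX9-1271 and 7.82 to 7.86 in DHX9-837, against 7.50 to 7.59 in control). The plasma cell genes Jchain and Mzb1 of the first list had DHX9-1271 arrays on either side of control arrays. Jchain had 9.60, 9.92 and 9.65 in DHX9-1271 and 10.18, 10.03 and 10.03 in DHX9-837, against 9.82, 9.80 and 9.84 in control. Mzb1 had 6.70, 7.08 and 6.79 in DHX9-1271 and 6.87, 6.66 and 6.88 in DHX9-837, against 6.78, 6.73 and 6.72 in control. Fibroblast genes had 5 of 9 higher (9.06 to 9.13 in DHX9-1271 and 8.998 to 9.12 in DHX9-837, against 8.72 to 8.93 in control), and endothelial genes 4 of 8 higher (7.63 to 7.74 in DHX9-1271 and 7.59 to 7.66 in DHX9-837, against 7.42 to 7.51 in control). Of T and NK cell genes 1 of 11 was higher (9.09%), near the share of all genes tested. In both hairpins against control 0 of 5 adipocyte, 0 of 8 smooth muscle and 0 of 3 enteric neuron and glia genes were called. Several of these counts rested on single arrays. The 5 B and plasma cell genes were 2 without control replicate 1 or 3, and 3 without control replicate 2 or DHX9-837 replicate 1. The 5 fibroblast genes were 3 without control replicate 1, any one DHX9-1271 replicate, or DHX9-837 replicate 2 or 3. The 5 macrophage genes were 3 without control replicate 1 or 2, DHX9-1271 replicate 3, or DHX9-837 replicate 1 or 3. The part of these cells in the levels of the 4 genes was not tested.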

How the data were processed

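The authors deposited log2 expression levels from Affymetrix Mouse Gene 2.0 ST arrays, which the submitters' processing notes credit to RMA in oligo 1.30.0 (R 3.1.1). What defines the probe sets, and on which build, is not given in the sources used here. Quantile normalization, a step of RMA as a method, hides a shift common to most genes. Titles gave the groups and the replicate numbers.

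The 24973 probe sets carry Entrez Gene numbers, and 24015 had 1 symbol in the platform table, 0 had several and 958 had none. Each of 24011 symbols kept its brightest probe set, and the 16808 genes with a mean at or above 5.28, the 30th percentile, were tested. Each of the 4 genes had 1 probe set. Tests used limma 3.58.1 in R 4.3.3: a group-means model over the 9 arrays, moderated by empirical Bayes without trend, and two-sided p-values with Benjamini-Hochberg adjustment across all genes tested. Array medians were 6.24 to 6.28 (log2), and precision is limited by the number of arrays. The method was tested on simulated data.

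From each list up to 4 called genes of smallest p per direction are named, with all tested Pnpla, Lpcat and St3gal genes, the called ones among 5 neighbours a side, and the 5 most alike genes; predicted genes were passed over (1, for Pnpla1). Of 373 list symbols, 15 could not be matched to a named probe set and were not analysed here. Members, lists and tests were chosen with earlier results of these data known. Same-numbered arrays did not deviate together (correlations over genes from -0.37 to 0.26), so replicate numbers were not taken as pairs. Alternatives covered level filter, probe sets per gene, centring, cyclic loess, moderation, array weights, arrays compared alone, replicate block, a limit of 1.5-fold, and each array left out in turn. Figures used matplotlib 3.10.9.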

Additional observations from a re-analysis of the deposited data

Results flagged for a closer look

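Some genes answered the hairpins unequally by the test of the difference, DHX9-837 minus DHX9-1271, while Dhx9 levels were alike. Counts of calls in this contrast depended on single arrays, as given in the next section. Limits of that kind are given above for Lpcat4, Pnpla1, Retn and Fabp4 only, so the other calls may be no firmer. Among the 4 genes these were Lpcat4 (0.86 on the log2 scale, adjusted p = 0.0131) and Pnpla1 (0.37, adjusted p = 0.0262), with the limits given above. Plet1 differed by 1.21 (95% interval 0.89 to 1.54, adjusted p = 0.00908), Plaur by 0.64 (adjusted p = 0.00777) and B4galt6 by 0.27 (adjusted p = 0.02). The gene of keratin 18, Krt18, differed by 0.34 (adjusted p = 0.0312). Prnp differed by -0.64 (95% interval -0.76 to -0.53, adjusted p = 0.00194), with a log2 fold of -0.64 against control in DHX9-837 and of 0.0015 in DHX9-1271. St6galnac6 differed by -0.47 (adjusted p = 0.0059) and the chloride-bicarbonate exchanger gene Slc26a3 by -0.36 (adjusted p = 0.0196). Of the genes most alike in pattern, Ephx1 differed by 0.75 (adjusted p = 0.00503), Sprr1a by 0.59 (adjusted p = 0.0196) and Slc1a4 by 0.54 (adjusted p = 0.0196). They were picked for likeness to Lpcat4 or Pnpla1 over these same arrays, so a difference in this direction is built into the choice. St3gal5 differed by -0.41 (adjusted p = 0.0226), with a log2 fold against control of -0.29 in DHX9-837 and 0.11 in DHX9-1271. The water channel gene Aqp8, of the columnar markers, differed by -0.67 (adjusted p = 0.0345). The adipocyte markers Retn and Fabp4 differed by 1.04 (adjusted p = 0.0312) and 0.88 (adjusted p = 0.0362), calls that ended without any one hairpin array and with the replicate block.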

How the results depend on the processing

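The 12 folds of the 4 genes against control moved by less than their residual SD in all 212 values from alternatives and kept their sign. Many of these alternatives cannot change a fold here: level filter, probe sets per gene, moderation, arrays compared alone, replicate block and the 1.5-fold limit. A left-out array changes only the folds that use its group. The genes were also chosen on these folds, so this is no test of them. The difference between hairpins in Lpcat4 ranged from 0.74 to 0.96 over fits without 1 array, and that in Pigl from 0.071 to 0.17. That in Pnpla1 ranged from 0.31 to 0.41, and its call also ended with no level filter (0.37, adjusted p = 0.053), in the hairpin arrays alone (0.37, adjusted p = 0.061), with the replicate block (0.37, adjusted p = 0.0554) and under the 1.5-fold limit (0.37). That in St3gal3, not called, ranged from -0.047 to 0.14 and turned negative without DHX9-1271 replicate 2 (-0.047) and without DHX9-837 replicate 2 (-0.0036).

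Counts over all genes depended more on the processing. For the mean of both hairpins against control 1367 were higher and 896 lower, against 146 and 80 under the 1.5-fold limit, and 779 to 1161 and 584 to 910 without 1 array. For DHX9-1271 they were 475 and 266, against 254 and 154 with no level filter, 207 and 129 in the arrays compared alone, 264 and 143 with the replicate block, 72 and 46 under the 1.5-fold limit, 719 higher with trend and robust moderation, and 77 to 431 and 51 to 283 without 1 array. For DHX9-837 they were 1457 and 1161, against 942 and 732 in the arrays compared alone, 241 and 159 under the 1.5-fold limit, and 942 to 1333 and 775 to 1183 without 1 array. Between hairpins they were 117 and 203, against 53 and 87 with no level filter, 178 higher with cyclic loess, 320 lower with the filter at the median gene, 197 and 357 with trend and robust moderation, 282 and 437 with array weights, 62 and 106 with the replicate block, 44 and 44 under the 1.5-fold limit, and 9 to 125 and 19 to 237 without 1 array. Counts moved by over 1.5 times for both hairpins without control replicate 1 or DHX9-1271 replicate 3 (876 and 585), for DHX9-1271 without control replicate 1 or 3 or any DHX9-1271 replicate, for DHX9-837 without DHX9-837 replicate 3, and between hairpins without control replicate 3 or any hairpin array. Of 82 named genes besides the 4, 25 kept their call in all alternatives and 57 did not, 26 of these also when the 1.5-fold limit is set aside. In fits without 1 array 26 lost their call, and 0 reversed in any alternative. Besides the calls noted beside their genes, the block also ended that of Ms4a1, a B cell marker (adjusted p = 0.0542). Levels near the filter, as in control arrays for Pnpla1, limit how well a fold is measured.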
